A study of Mus musculus with 16 samples.

Results

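The genes described here were 37 interferon-stimulated genes, a module named by symbol and not by any value measured in this series. They were looked up by gene ID in 2 tables of TPM values (a level per gene scaled for transcript length and library size), one for plasmacytoid dendritic cells (pDCs) and one for conventional dendritic cells (cDCs). Of the 37 genes, 36 were listed in both tables, out of 17128 genes in the pDC table and 17721 in the cDC table, and Mx2 was not analysed here. The libraries came from dendritic cells (DCs) sorted from the spleens of C57BL/6 mice aged 6 to 8 weeks. WT mice carried the floxed Trim33 allele without Cre (Trim33fl/fl). The cKO mice were Trim33fl/fl Itgax-Cre, in which the promoter of Itgax, the gene of CD11c, drives Cre and deletes Trim33 in cells that express CD11c. Both genotypes therefore carried the floxed allele, and no interferon, virus or other stimulus is named in the labels, so the levels are those of unstimulated mice. The pDCs, sorted as CD11c+ SiglecH+ cells, gave 3 libraries of each genotype. The cDCs were CD11c+ and MHC II+ without SiglecH, and were split into cDC1s with CD24 and no CD172a (2 libraries of each genotype) and cDC2s with CD172a and no CD24 (3 of each). Each library is a biological replicate made from a pool of several mice, with more mice in the cKO pools than in the WT pools, so pool size cannot be told apart from genotype.

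Type I interferons bind the receptor made of IFNAR1 and IFNAR2, which activates the kinases TYK2 and JAK1 and through them transcription factors that join IRF9. The complex binds a promoter element rich in GAAA repeats, the interferon-stimulated response element (ISRE). Interferon gamma acts through its own receptor on another element (GAS). The genes switched on in this way encode proteins that sense foreign nucleic acid, degrade viral RNA, block viral translation, attack pathogen vacuoles or damp the signal. They are also expressed at a low level without infection, a baseline called tonic interferon signalling, and pDCs are known as the main producers of type I interferon once they sense viral nucleic acid.

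Trim33 itself, the targeted gene, was lower in every cKO library than in the WT libraries of its subset. By limma it was called lower in cDC1s and cDC2s. In pDCs it was not called, and at the same limits a call appeared only with the replicate number as a block. There its adjusted p by limma ran from 0.0036 to 0.12 over the alternatives. It ran from 20.6 to 23.8 TPM in WT and from 11.7 to 16.5 in cKO pDCs, from 15.5 to 18.2 and from 7.71 to 7.88 in cDC1s, and from 17.2 to 20.6 and from 7.13 to 8.07 in cDC2s. The subsets carried their own markers: the summed level of 13 pDC genes was 20073 TPM or more in every pDC library and at most 368.7 in the cDCs, that of 10 cDC1 genes 5421 or more in cDC1s and at most 642.3 in cDC2s, and that of 12 cDC2 genes 2143 or more in cDC2s and at most 177.6 in cDC1s. The cDC1 and cDC2 lists also summed to 2313 TPM or more in pDCs, so they do not part pDCs from cDCs. Estimated depth was 18 to 20.2 M reads per library. At that depth 1 TPM on a 2000-base transcript stands for 16.9 to 22 reads, and 3 reads for 0.137 to 0.178 TPM. The lowest value of any of the 36 genes was 0.47 TPM, for Gbp7 in WT cDC1 library 2, and all 36 passed the filter on low values (a mean of at least 1 TPM) in both fits.

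The module had a promoter feature that its definition by symbol did not use. RefSeq promoters on GRCm38.p6, from 250 bases before to 50 bases after a start site listed for a gene, were at hand for 28 of the 37 genes. They were not at hand for Oas2, Rtp4, Usp18, Dhx58, Zbp1, Parp9, Parp14, Iigp1 and Mx2. A listed start site need not be the outer end of the gene's span. The ISRE-like word GAAANNGAAA, searched on both strands, lay in 15 of the 28 (53.6%), against 3.99% of 27025 genes with a promoter entry and 3.44% of all 32851 promoters. The GAS-like word TTCNNNGAA lay in 9 of the 28 (32.1%), against 9.55% of all genes. Below are the stretches around the ISRE-like word for some of the genes that held it. Isg15, Oas1a and Oas3 rose in cKO cDC1s. Ifit1 and Ifit3 had some of the widest gaps between WT cDC1s and WT cDC2s. Capitals mark the word on either strand, including runs where copies overlap, and each stretch is written 5′ to 3′ on the gene's own strand.
Isg15, chr4:156200860-156200911, minus strand: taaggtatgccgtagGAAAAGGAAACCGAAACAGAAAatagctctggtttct
Oas1a, chr5:120907526-120907560, minus strand: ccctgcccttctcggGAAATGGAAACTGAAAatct
Oas3, chr5:120777710-120777749, minus strand: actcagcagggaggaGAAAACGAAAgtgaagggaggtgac
Ifit1, chr19:34640770-34640828, plus strand: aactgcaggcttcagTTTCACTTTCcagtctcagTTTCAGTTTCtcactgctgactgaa
Ifit3, chr19:34583358-34583431, plus strand: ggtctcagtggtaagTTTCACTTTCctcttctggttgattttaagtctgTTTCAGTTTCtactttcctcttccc
Isg15 held 3 overlapping copies, Oas1a 2 overlapping copies that end 4 bases before the listed start site, Ifit1 and Ifit3 2 separate copies each, and Oas3 1 copy. For Oas1a, Oas3 and Ifit3 the listed start site lies inside the gene's annotated span. The printed stretch of Oas1a lies partly within the span, that of Ifit3 wholly, and that of Oas3 outside it. A match is a description of the letters and not a shown binding site. Among the other genes that rose in cKO cDC1s, Cmpk2, Ifi47, Xaf1 and Isg20 did not hold the ISRE-like word in this window, and Isg20 held the GAS-like word. Oasl2, with a wider gap between WT cDC1s and WT cDC2s than Ifit1, did not hold the ISRE-like word either.

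Without any stimulus, the 3 WT subsets held the module at different levels. Averaged over the 36 genes as log2(TPM + 1), the level was 3.78 ± 0.24 (SD, n = 2) in WT cDC1s, 4.43 ± 0.09 (SD, n = 3) in WT pDCs and 5.38 ± 0.26 (SD, n = 3) in WT cDC2s. By library it was 3.95 and 3.61 in cDC1s, 4.52, 4.35 and 4.43 in pDCs, and 5.08, 5.57 and 5.48 in cDC2s. No WT library of one subset fell within the range of another. The pDC and cDC tables were deposited separately and list different genes, so levels across them are set side by side without a test. cDC2s had the highest WT mean for 25 genes, pDCs for 8 and cDC1s for 3, while cDC1s had the lowest for 24.

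**Figure D1:**
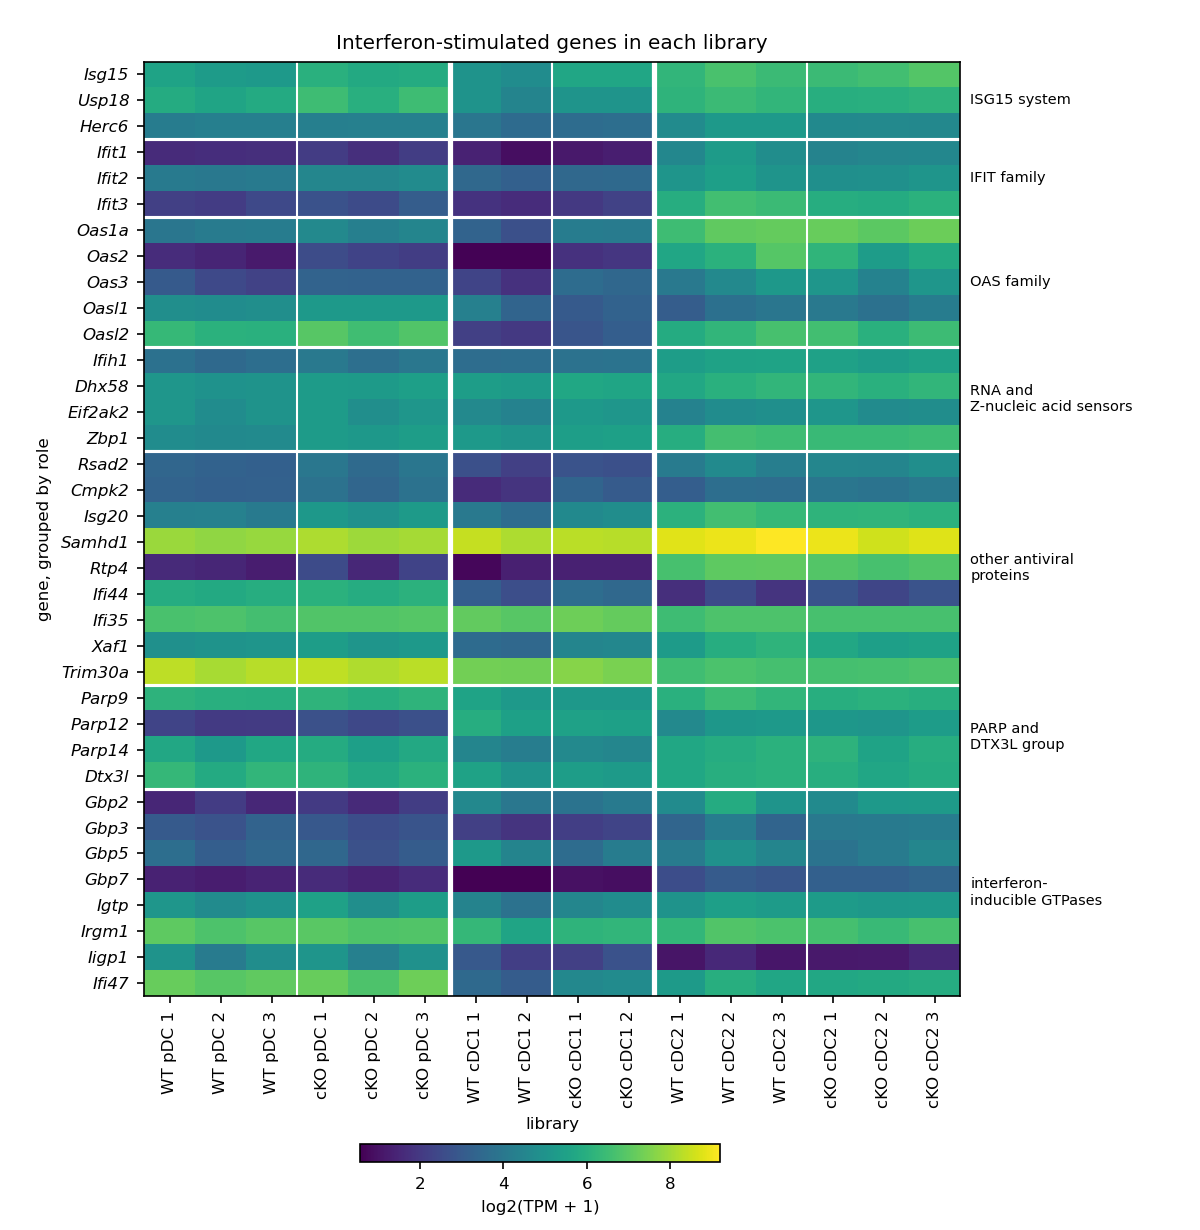
Heat map of log2(TPM + 1) for 36 interferon-stimulated genes (rows, grouped by role) in 16 libraries (columns), with a colour scale from dark (low) to yellow (high). White lines part roles, subsets and genotypes. Ifit1, Ifit3, Oas2 and Rtp4 are dark in cDC1s and pDCs and brighter in cDC2s, Samhd1 is bright in every library, and Ifi44, Iigp1 and Ifi47 are brightest in pDCs.

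The conventional subsets share a table, so their difference was tested. Of the 36 genes, 26 were lower in WT cDC1s than in WT cDC2s by limma (adjusted p no higher than 0.01, log2 difference 0.5 or more), against 20.8% of all genes called lower, and 2 were higher, against 10.9%. The median log2 difference (cDC1 minus cDC2) was -1.54 over the 36 genes and -0.17 over all 11411 genes tested. Every WT cDC1 library was below every WT cDC2 library for 27 of the 36 genes, against 41.5% of all genes. Under median-of-ratios scaling, which brings the median of all genes to -0.00, the module's median was -1.37 with 25 genes lower and 5 higher. Over all genes, 2371 were lower and 1241 higher with TPM as deposited, and 1755 lower and 1765 higher under that scaling. In the same WT libraries the summed level of 16 monocyte and macrophage markers was 787.8 to 1021 TPM in cDC1s and 1988 to 2460 TPM in cDC2s. Of these 16 genes, 12 were called lower in WT cDC1s, as were 3 of 4 T cell and 4 of 6 B cell markers tested. The sum of 20 mature DC genes leaned the other way, at 4887 to 7212 and 3478 to 4918 TPM. The part of these markers in the gap was not tested.

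The widest gap was that of Rtp4, which encodes a chaperone-like transmembrane protein induced by interferon. Rtp4 stood at 0.65 and 1.5 TPM in WT cDC1s and at 101.1, 132.8 and 135.1 TPM in WT cDC2s, which is -5.92 on the log2 scale (SE 0.18, adjusted p 9.9e-09 by limma). Oas2, one of the oligoadenylate synthetases that make the activator of RNase L when they meet double-stranded RNA, was at 0.51 TPM in both WT cDC1 libraries and at 50.4, 66.3 and 121.3 TPM in WT cDC2s (-5.64, SE 0.33, adjusted p 3.4e-07). Both genes were close to the bottom of the range in cDC1s and among ordinary expressed genes in cDC2s.

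Of the IFIT proteins, which bind viral RNA lacking host cap marks and block its translation, Ifit3 was at 2.52 and 2.14 TPM in WT cDC1s against 61.0, 94.7 and 87.3 TPM in WT cDC2s. The log2 difference of Ifit3 was -4.60 (SE 0.18, adjusted p 2.4e-08 by limma). Ifit1 followed with 1.61 and 0.85 TPM against 22.7, 38.5 and 26.8 TPM (-3.75, SE 0.21, adjusted p 2.7e-07). All 3 IFIT genes were lower in cDC1s, in libraries that did not overlap. Transcripts of Ifit3 share 51.2% of their 50-base words with other genes, above all Ifit3b, so the reads of these copies are not cleanly parted.

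Of the OAS family, 4 of 5 genes were lower in WT cDC1s. Oasl2, a relative of the synthetases, was at 3.62 and 3.01 TPM in WT cDC1s and at 58.0, 75.4 and 101.1 in WT cDC2s (log2 difference -4.16, SE 0.23, adjusted p 2.3e-07 by limma). Oas1a was at 8.82 and 5.41 TPM against 90.4, 134.6 and 142.5 TPM (-3.93, SE 0.21, adjusted p 2.1e-07), and 57.6% of its 50-base words occur in other genes, above all Oas1g. Oas3 differed by -2.55 (SE 0.32). Oasl1, which restrains translation of Irf7, overlapped between the subsets with 18.9 and 9.16 TPM in cDC1s and 7.70, 12.4 and 14.5 in cDC2s. The gap between cDC1s and cDC2s was thus not shared by every member of the family.

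The other roles were mostly lower in WT cDC1s as well. All 3 genes of the ISG15 system were lower in WT cDC1s: Isg15, a ubiquitin-like modifier, Herc6, its ligase in the mouse, and Usp18, the protease that removes ISG15 and damps IFNAR signalling, by 1.30 to 1.58 on the log2 scale. Of the sensors, Ifih1 (MDA5), Dhx58 (LGP2) and Zbp1 were lower and Eif2ak2 (PKR) was not called. Of 9 other antiviral genes 6 were lower and Trim30a was higher. Of the PARP and DTX3L group, 3 of 4 were lower, though the call of Dtx3l was lost under most alternatives. Among the 8 interferon-inducible GTPases, which act on pathogen vacuoles, Gbp3, Gbp7, Igtp and Ifi47 were lower and Iigp1 was higher.

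Not every member was lowest in cDC1s. Trim30a, a TRIM protein that restrains NF-kB signalling, was at 164.0 and 159.0 TPM in WT cDC1s and at 91.9, 106.6 and 98.8 TPM in WT cDC2s (log2 difference 0.70, SE 0.10, adjusted p 0.00018 by limma). Iigp1, an immunity-related GTPase, was at 6.80 and 3.44 TPM against 1.08, 1.93 and 1.12 TPM (1.33, SE 0.27, adjusted p 0.0024). Iigp1 lost its call without WT cDC1 library 1.

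In WT pDCs a different set of members led. Trim30a was the most abundant, at 319.0, 269.0 and 308.8 TPM, followed by Samhd1, a dNTPase that limits reverse transcription, at 240.2, 217.1 and 230.5 TPM, and Ifi47, an immunity-related GTPase, at 143.6, 124.3 and 136.2 TPM. Every WT pDC library was above every WT cDC library for 5 genes: Oasl1, Ifi44, Trim30a, Iigp1 and Ifi47. Ifi47 was at 10.4 and 7.34 TPM in WT cDC1s and at 37.2 to 61.6 in WT cDC2s. Ifi44, a cytoplasmic protein induced by interferon, was at 59.7, 55.1 and 60.8 TPM in WT pDCs and at most 7.73 in WT cDCs. At the other end, Oas2 at 1.27 to 2.11 TPM, Rtp4 at 1.35 to 2.03 TPM and Ifit1 at 2.10 to 2.26 TPM were low in WT pDCs too. The most abundant members were Samhd1 at 349.0 and 277.4 TPM, Trim30a, and Ifi35 at 137.8 and 121.7 TPM in WT cDC1s. In WT cDC2s they were Samhd1 at 452.6, 486.9 and 586.9 TPM, Rtp4 and Oas1a.

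**Figure D2:**
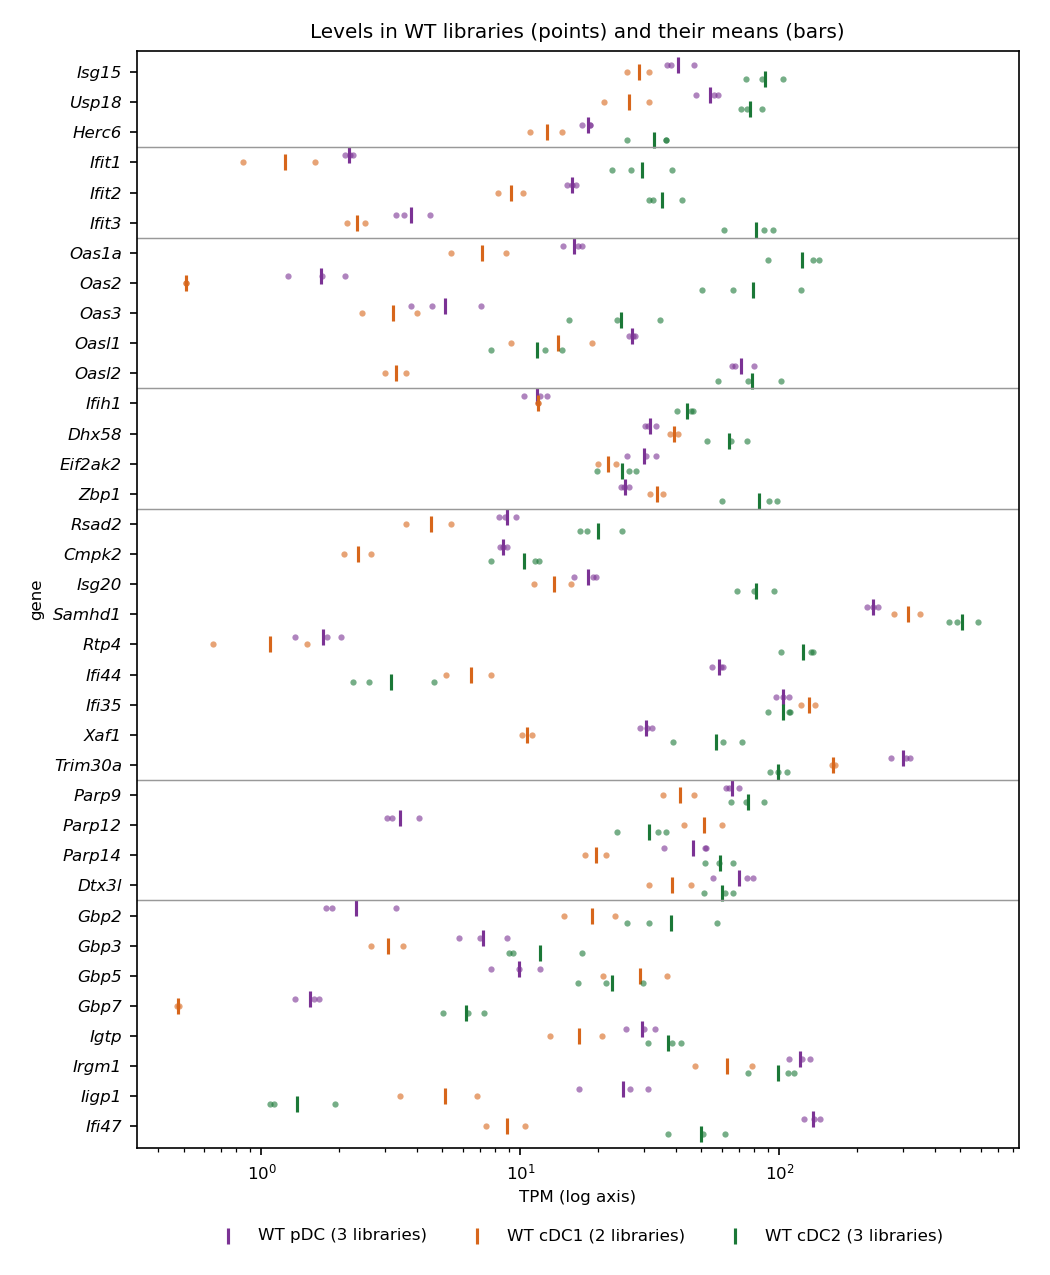
TPM on a log axis for 36 interferon-stimulated genes in WT libraries of pDCs (purple, 3 libraries), cDC1s (orange, 2) and cDC2s (green, 3). Points are libraries and vertical bars their means. The green points stand to the right of the others for the ISG15, IFIT and OAS genes except Oasl1 and Oasl2, and the purple points stand to the right for Ifi44, Trim30a, Iigp1 and Ifi47.

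The second question was how these levels differed in cKO libraries, in which Trim33, the gene of a chromatin-associated TRIM protein, was lower. In pDCs most members stood higher in cKO libraries by a small amount. The log2 fold change (cKO over WT) was positive for 32 of 36 genes, with a median of 0.29 against -0.05 over all 11299 genes tested. Every cKO library was above every WT library for 21 of the 36 genes, against 10.8% of all genes, and below for 0 of the 36, against 16.7%. With limma, 19 of the 36 had an unadjusted p under 0.05, against 20.8% of all genes, yet after Benjamini-Hochberg adjustment over all genes 1 of the 36 was called, against 0.814% of all genes called higher. Same-numbered WT and cKO pDC libraries deviated together, and with the replicate number as a block 7 of the 36 were called higher, against 2.3% of all genes. That block was chosen from these same data, and no label says what the number marks. The mean level over the 36 genes was 4.52, 4.35 and 4.43 in WT and 4.86, 4.54 and 4.81 in cKO pDCs, on the log2(TPM + 1) scale.

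The member called in pDCs was Isg20, an exonuclease that degrades single-stranded RNA (gene ID 57444, chromosome 7, 78913396 to 78920396, GRCm38.p6). Its level was 19, 19.6 and 16.2 TPM in WT and 35.3, 29.2 and 37.5 TPM in cKO pDCs, 18.3 ± 1.8 against 34.0 ± 4.3 (SD, n = 3 each). All cKO libraries were above all WT libraries. The log2 fold change of Isg20 was 0.86 (SE 0.12, adjusted p 0.0085 by limma), and the call was lost under 7 of 13 alternatives, with adjusted p from 0.0036 to 0.043.

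Zbp1, the sensor of Z-form nucleic acid that starts necroptosis, came next with 26.4, 24.5 and 25.1 TPM in WT and 38.7, 34.6 and 39.9 TPM in cKO pDCs. Its log2 fold change of 0.56 (SE 0.08) had an adjusted p of 0.0104 by limma, just outside the threshold, and 0.0024 with the block. Oasl1 was at 27.2, 26.1 and 27.6 TPM in WT and at 36.8, 35.5 and 35.6 TPM in cKO pDCs, tight groups that did not overlap. The change of Oasl1, 0.40 (SE 0.07, adjusted p 0.016), was under the fold limit.

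The genes called with the block besides Isg20 and Zbp1 were Isg15, Usp18, Ifit2, Oas2 and Oasl2. Usp18 was at 57.8, 47.5 and 55.9 TPM in WT and at 89.9, 63.0 and 91.5 TPM in cKO pDCs (log2 fold change 0.58, adjusted p 0.074 by limma and 0.0026 with the block). In both genotypes library 2 was the lowest. Isg15 was at 46.8, 38.2 and 36.8 TPM in WT and at 65.1, 54.4 and 57.3 TPM in cKO pDCs (0.53, adjusted p 0.037, and 0.002 with the block). Oas2 had the largest fold of the module in pDCs at a low level, with 2.11, 1.71 and 1.27 TPM in WT and 4.98, 3.96 and 3.41 TPM in cKO pDCs (0.92, adjusted p 0.03, and 0.0048 with the block). Oasl2 was at 79.7, 67.1 and 65.5 TPM against 122.3, 92.1 and 115.3 TPM, and Ifit2 at 16.4, 15.1 and 15.8 TPM against 21.8, 22 and 25.5 TPM. For each of these 5 genes every cKO library was above every WT library.

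By role, all 5 OAS genes and all 3 IFIT genes stood higher in every cKO pDC library than in every WT library, with log2 fold changes of 0.36 to 0.92 and 0.31 to 0.53. None of those 8 was called without the block. Of the 8 GTPases, 1 (Gbp7) had every cKO library above every WT library, near the 10.8% of all genes, their median log2 fold change was 0.06, and Gbp5 had the lowest value of the module, -0.35. Ifi47, the most abundant of them in pDCs, was at 143.6, 124.3 and 136.2 TPM in WT and at 145.9, 108.4 and 154.6 TPM in cKO pDCs, with the cKO range enclosing the WT range. In the same libraries the summed level of 10 neutrophil markers was 13.2 to 32.8 TPM in WT and 34.6 to 143.8 in cKO pDCs, and that of 10 T cell markers 24.9 to 31.1 and 34.1 to 46.2 TPM. The sum of 16 monocyte and macrophage markers, 5917 to 6560 and 6736 to 7143 TPM, was mostly Ly6c2, and without it the groups overlapped at 1104 to 1146 and 1108 to 1441 TPM. The part of these markers in the differences was not tested. In bulk samples, fewer cells of a kind and less RNA per cell cannot be told apart.

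**Figure D3:**
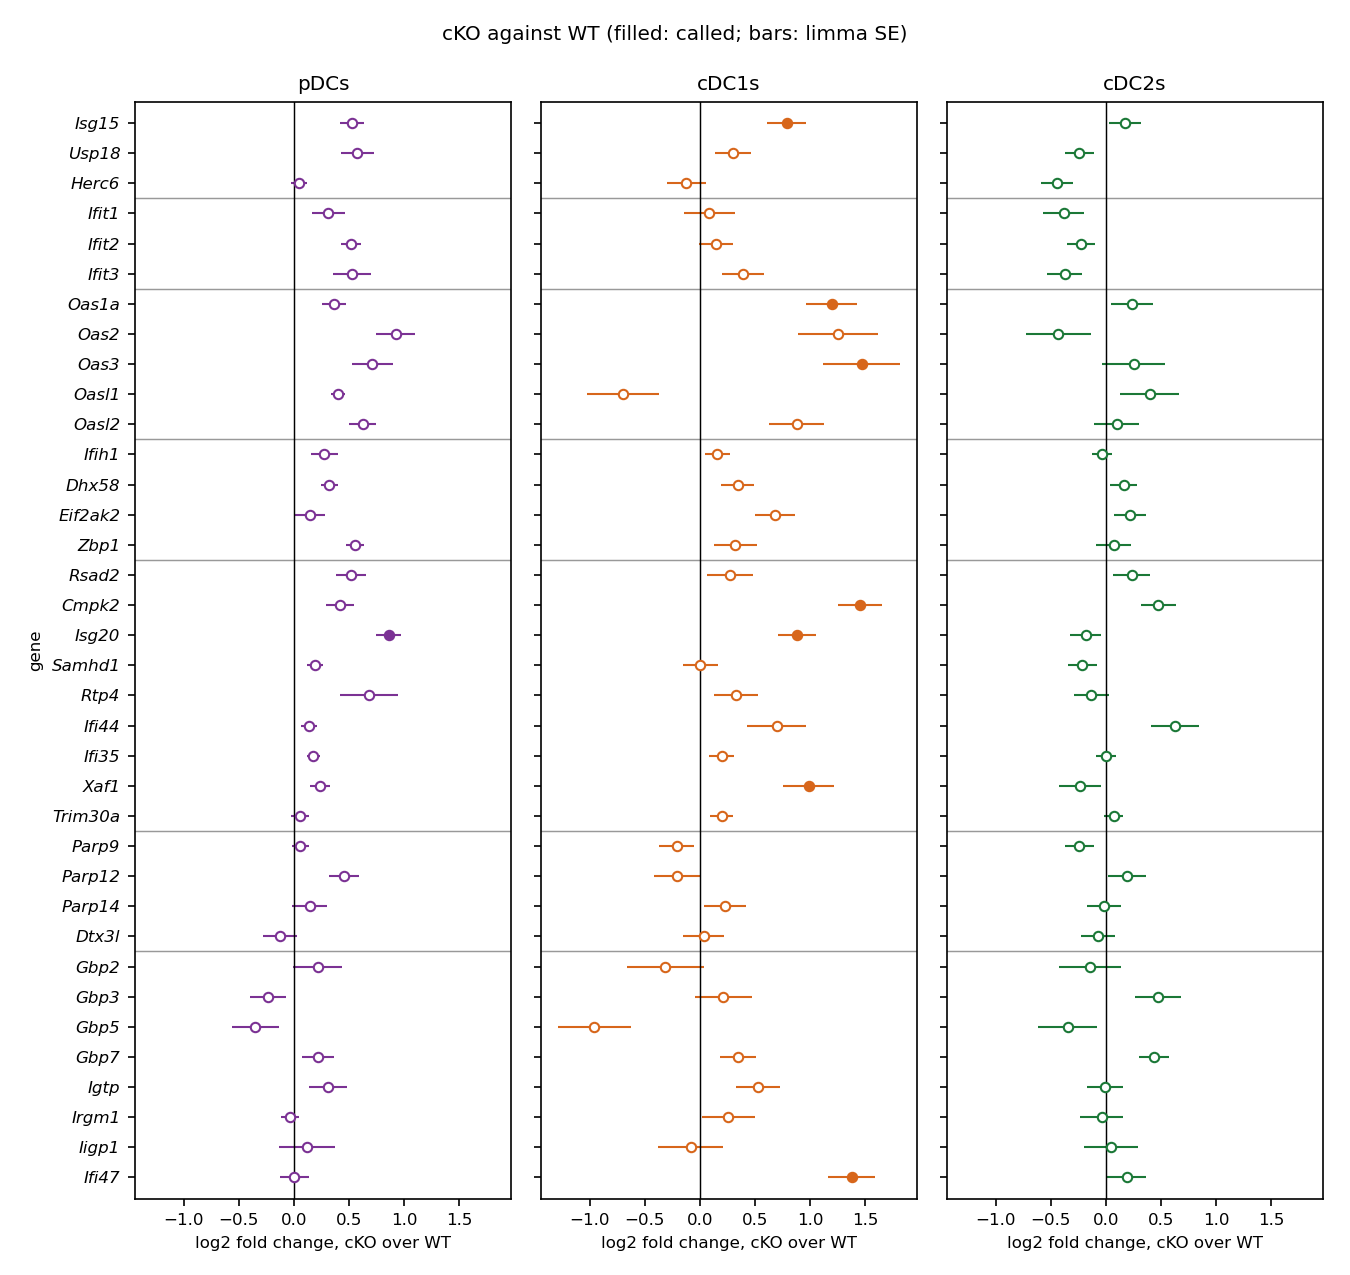
log2 fold change of cKO over WT for 36 interferon-stimulated genes in pDCs, cDC1s and cDC2s, with horizontal bars for the limma SE and filled points for genes called. In pDCs most points lie to the right of 0 by less than 1. In cDC1s 7 filled points lie between 0.79 and 1.47, and in cDC2s no point is filled.

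In cDC1s 7 of the 36 genes were called by limma and all 7 were higher in cKO cDC1s: Cmpk2, Ifi47, Oas3, Oas1a, Xaf1, Isg20 and Isg15. That is 7 of 36, against 15.8% of all genes called higher, so the count of calls is near the background of this contrast. Every cKO library was above every WT library for 22 of the 36 genes and below for 3, against 52.1% and 24.1% of all genes with 2 libraries a group. At an unadjusted p under 0.05 there were 14 of 36, against 48.6% of all genes. The median log2 fold change was 0.29 over the 36 genes and 0.17 over all genes, of which 1806 were higher and 749 lower. Median-of-ratios scaling, which brings the median of all genes to -0.01, gave a median of 0.11 for the module and 5 called, against 8.72% of all genes called higher (995 higher and 1114 lower), and quantile normalization gave 3, against 9.29%. The mean level over the 36 genes was 3.95 and 3.61 in WT and 4.13 and 4.18 in cKO cDC1s.

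Cmpk2, a mitochondrial nucleotide kinase induced by interferon (gene ID 22169, chromosome 12, 26469117 to 26479837, GRCm38.p6), was the firmest of the 7. It stood at 2.09 and 2.64 TPM in WT and at 9.20 and 7.26 TPM in cKO cDC1s, a rise of 1.45 on the log2 scale (SE 0.20, adjusted p 0.00049 by limma). It was called under all 19 alternatives, with adjusted p from 0.00018 to 0.0085. Ifi47 (gene ID 15953, chromosome 11, 49076587 to 49096987) was at 10.4 and 7.34 TPM in WT and at 23.2 and 25.5 TPM in cKO cDC1s (1.38, SE 0.21, adjusted p 0.00096). Its call was lost under 1 of 19 alternatives, without cKO cDC1 library 2. For both genes the groups were well apart.

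The OAS genes held 2 of the calls and the largest fold. Oas3 (gene ID 246727), whose promoter word is printed above, was at 3.99 and 2.44 TPM in WT and at 11.1 and 9.83 TPM in cKO cDC1s (1.47, SE 0.35, adjusted p 0.0081 by limma). Oas1a (gene ID 246730) was at 8.82 and 5.41 TPM against 17.4 and 17.0 TPM (1.2, SE 0.23, adjusted p 0.0029). Oas2, at 0.51 TPM in both WT libraries, was at 2.46 and 2.75 TPM in cKO cDC1s and Oasl2 was at 3.62 and 3.01 against 6.17 and 7.72 TPM. These did not pass the threshold (adjusted p 0.02 and 0.019). Oasl1 had the opposite sign, at 18.9 and 9.16 TPM in WT and 6.96 and 8.64 TPM in cKO cDC1s (log2 fold change -0.70, adjusted p 0.12).

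Isg20 was at 15.6 and 11.3 TPM in WT and at 24.1 and 26.5 TPM in cKO cDC1s (0.88, SE 0.17, adjusted p 0.0031 by limma). Isg15 (gene ID 100038882) was at 31.3 and 25.9 TPM against 50.3 and 49.5 TPM (0.79, SE 0.18, adjusted p 0.006). Xaf1, a partner of the apoptosis inhibitor XIAP (gene ID 327959), was at 11.1 and 10.2 TPM against 21.4 and 22.5 TPM (0.99, SE 0.23, adjusted p 0.0076). The calls of Xaf1, Oas3 and Isg15 were lost under 13, 10 and 8 of 19 alternatives, those of Isg20 and Oas1a under 4 and 3. The number of members called ran from 1, without cKO cDC1 library 2, to 10, without WT cDC2 library 1 or 3, when single libraries were left out.

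The remaining members of cDC1s give a mixed picture. None of the 3 IFIT genes was called, and Ifit1 at 1.61 and 0.85 TPM in WT and 1.24 and 1.43 TPM in cKO cDC1s overlapped. Usp18 was at 31.3 and 21.1 against 31.8 and 31.9 TPM. Samhd1 had a log2 fold change of 0.00 (SE 0.16). Gbp5, which promotes inflammasome assembly, was lower at 36.9 and 20.9 TPM in WT and 11.2 and 17.1 TPM in cKO cDC1s, but was not called (-0.96, SE 0.33, adjusted p 0.042 by limma). WT cDC1 library 1 was above library 2 for most of the genes named, so the WT range in cDC1s is the distance between 2 libraries. The summed level of 20 genes of mature DCs moved with genotype in the same libraries, from 7212 and 4887 TPM in WT to 872.0 and 1063 TPM in cKO cDC1s, and that of 10 neutrophil markers from 3.88 and 18.8 to 25 and 44.5 TPM. The sum of 8 NK cell markers went from 48.9 and 62.3 to 102.3 and 114.4 TPM, nearly all of it Klrk1, and the other 7 summed to 3.7 and 2.3 TPM in WT and 3.2 and 2.1 TPM in cKO cDC1s. Their part in these differences was not tested.

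In WT cDC1s all 7 genes that rose in cKO cDC1s were below every WT cDC2 library, as were 41.5% of all genes. Set beside the same WT cDC2 libraries, 6 of the 7 stood below all of them in the cKO cDC1 libraries too. The share of all genes for that comparison was not computed, so the count is a description only. Cmpk2 overlapped, with 9.20 and 7.26 TPM in cKO cDC1s and 7.73, 11.8 and 11.4 TPM in WT cDC2s.

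**Figure D4:**
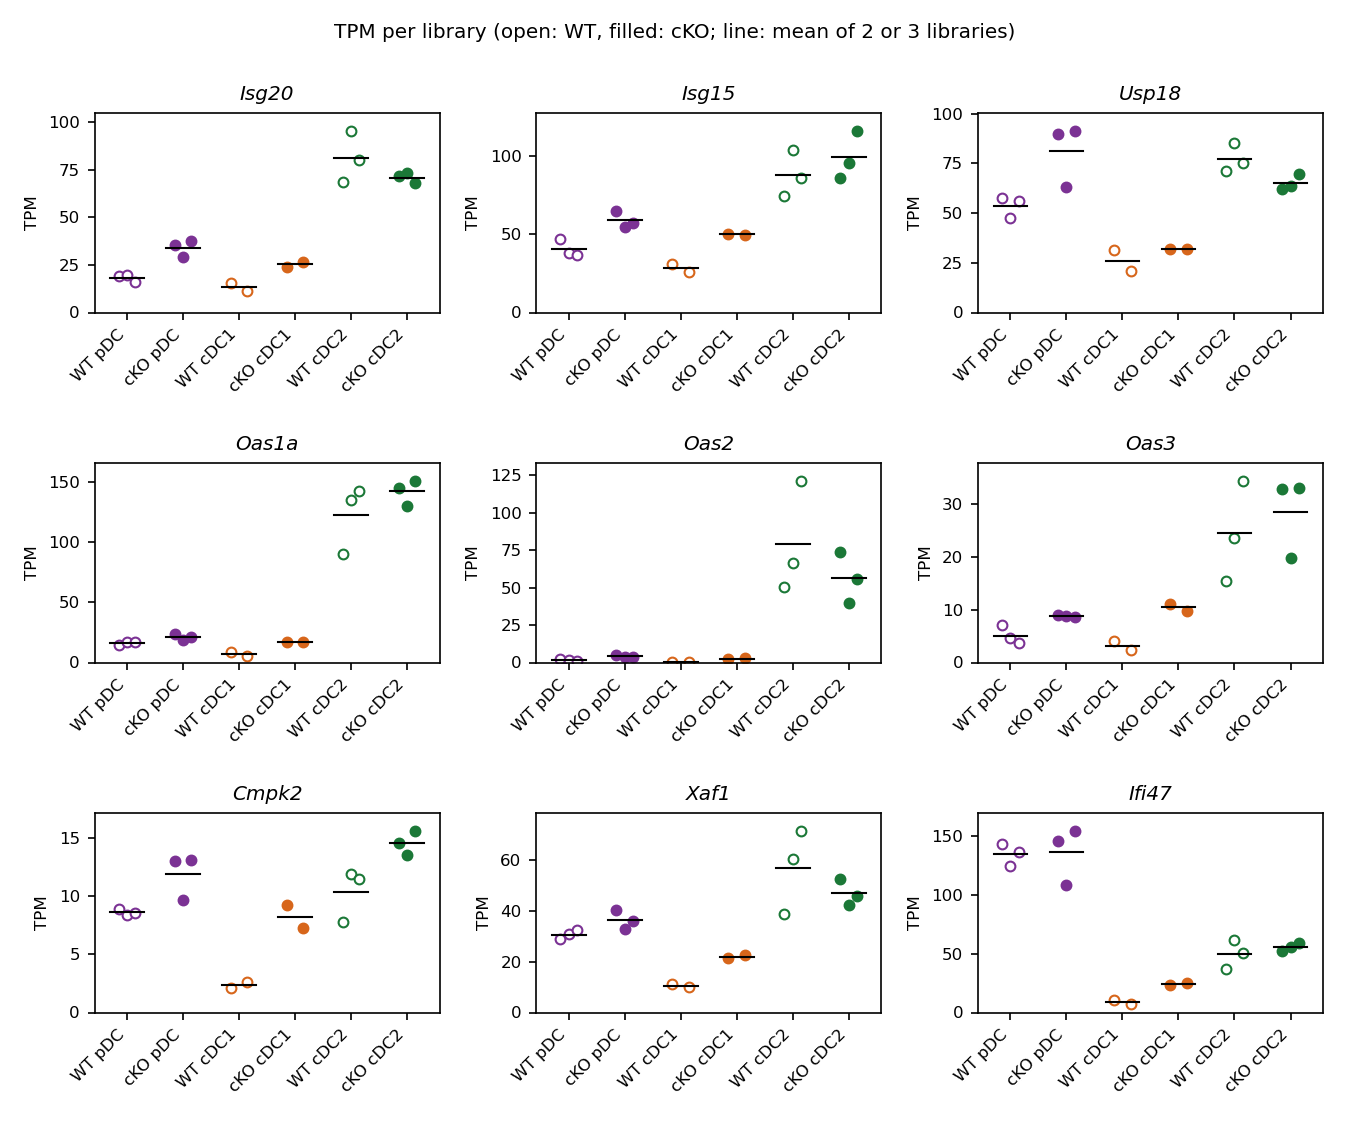
TPM of 9 interferon-stimulated genes in each library (open circles WT, filled circles cKO, horizontal lines group means) in pDCs, cDC1s and cDC2s. The filled cDC1 circles stand above the open ones in all 9 panels, by a small margin for Usp18. The cKO and WT cDC2 circles overlap except for Usp18 and Cmpk2.

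In cDC2s, the subset with the highest baseline, no member was called by limma, against 7.15% of all genes called, and 6 of 36 had an unadjusted p under 0.05, against 34.1% of all genes. The other fits called 0 or 1. The median log2 fold change was -0.00 over the 36 genes and -0.03 over all genes, with 17 of 36 positive. Every cKO library was above every WT library for 2 genes and below for 2, against 16.3% and 19.2% of all genes. The mean level over the 36 genes was 5.08, 5.57 and 5.48 in WT and 5.42, 5.28 and 5.48 in cKO cDC2s, with WT library 1 the lowest of all 6. On simulated data with known changes of 1 on the log2 scale, the fit recovered 81% of the changed genes in cDC2s, 66% in cDC1s and 86% in pDCs. The changed genes were drawn from the more highly expressed ones only. The shares therefore do not cover low members or the smaller changes seen here.

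The members nearest to the threshold in cDC2s were Gbp7, Herc6 and Cmpk2. Gbp7, a guanylate-binding protein, was at 5.01, 7.23 and 6.28 TPM in WT and 8.28, 8.25 and 9.35 TPM in cKO cDC2s (log2 fold change 0.43, SE 0.14, adjusted p 0.047 by limma). Cmpk2 was at 7.73, 11.8 and 11.4 TPM against 14.5, 13.5 and 15.6 TPM (0.48, SE 0.16, adjusted p 0.063). Herc6 went the other way, at 25.7, 36.4 and 36.6 TPM in WT and 24.1, 23.4 and 23.3 TPM in cKO cDC2s (-0.44, SE 0.15, adjusted p 0.057). For each of the 3 the groups did not overlap. The 3 IFIT genes all had a negative log2 fold change in cDC2s, from -0.38 to -0.23, and in all 3 the groups overlapped. The summed level of the 16 monocyte and macrophage markers was 1988 to 2460 TPM in WT and 3332 to 4338 TPM in cKO cDC2s, and that of the 20 mature DC genes 3478 to 4918 and 1916 to 2536 TPM. Their part in these values was not tested.

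Whether the genotype difference was larger in cDC1s than in cDC2s was tested directly. No member was called for the cDC1 effect minus the cDC2 effect by limma, against 2.56% of all genes, and 12 of 36 had an unadjusted p under 0.05, against 30.7%. The median of this difference was 0.27 over the 36 genes and 0.22 over all genes. At the looser limit of an adjusted p of at most 0.05 there were 5 of 36, against 11.3% of all genes: Xaf1 (1.22, SE 0.30, adjusted p 0.031), Ifi47 (1.19, SE 0.28, adjusted p 0.027), Isg20 (1.07, SE 0.22, adjusted p 0.018), Cmpk2 (0.98, SE 0.26, adjusted p 0.039) and Oas2 (1.69, SE 0.47, adjusted p 0.044). All 5 were positive, that is, the cKO libraries were further above WT in cDC1s. At the stated threshold, then, no difference between the subsets in the genotype effect was shown for single members, and the data do not show that the effects were equal.

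**Figure D5:**
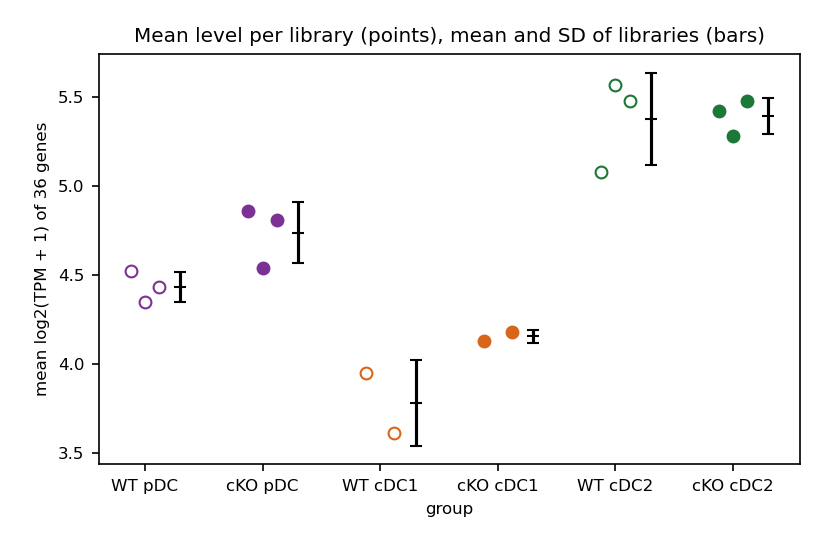
Mean log2(TPM + 1) over 36 interferon-stimulated genes in each library, by group (open circles WT, filled circles cKO), with the mean and SD of the 2 or 3 libraries beside them. The cKO circles are above the WT circles in pDCs (4.54 to 4.86 against 4.35 to 4.52) and in cDC1s (4.13 and 4.18 against 3.61 and 3.95), and overlap with them in cDC2s.

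The genes that carry the interferon signal to the module were examined as lists. Of 20 interferon genes 6 were listed, and their summed level was at most 1.7 TPM in any library. Ifnb1, the gene of interferon beta, was at 0 in every WT library and at most at 0.32 TPM in cKO libraries, which is a few reads. The highest single values were 1.01 TPM for Ifnz and 0.91 TPM for Ifnk, each in 1 WT pDC library. The other 14 interferon genes, nearly all of them interferon alpha genes, have no row here and were not analysed here.

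Of 9 receptor and kinase genes, 3 were called in cDC1s, all lower, against 22.4% of all genes called in either direction. Ifnlr1, the specific chain of the lambda interferon receptor, was at 12 and 11.7 TPM in WT and at 1.22 and 1.35 TPM in cKO cDC1s, near the 0.95 to 1.66 TPM of all cDC2 libraries. Its log2 fold change was -2.49 (SE 0.18, adjusted p 2.0e-05 by limma). Ifngr1, the ligand-binding chain of the interferon gamma receptor, was at 887.1 TPM in both WT libraries and at 430.4 and 447.0 TPM in cKO cDC1s (-1.01, SE 0.09, adjusted p 7.5e-05). Il10rb, the chain that the lambda interferon and IL-10 receptors share, fell by 0.60. Of the 9, Ifnlr1 and Ifngr1 were also called for the difference between the subsets (-2.45 and -0.81), against 2.56% of all genes. The chains of the type I receptor were not called in cDC1s: Ifnar1 was at 53.9 and 45.6 TPM in WT and 41.2 and 39.7 TPM in cKO, and Ifnar2 at 89.9 TPM in both WT libraries and 116.7 and 119.3 TPM in cKO cDC1s (0.39, under the fold limit).

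In cDC2s 1 of the 9 was called, a share near the 7.15% of all genes, again lower: Jak2, a kinase of the interferon gamma receptor, at 361.9, 392.8 and 401.8 TPM in WT and 253.2, 249.8 and 250.7 TPM in cKO cDC2s (-0.61, SE 0.08, adjusted p 0.00074 by limma). In pDCs 0 of the 8 tested were called by limma, against 1.05% of all genes called in either direction, and 0 with the block. At an unadjusted p under 0.05 there were 2 of the 8, against 20.8% of all genes. Ifngr1 stood at 43.2 to 50.7 TPM in all pDC libraries and Ifnar2 at 472.3 to 535.3 TPM, so, set side by side without a test, Ifnar2 was highest and Ifngr1 lowest in pDCs.

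None of the factors that bind the promoter elements was called. Of 7 transcription factor genes, 0 were called in any subset by limma, and 0 with the block in pDCs. Of all genes, 1.05%, 22.4% and 7.15% were called in pDCs, cDC1s and cDC2s. For so few genes, 0 calls is near the share of all genes in pDCs and cDC2s. In the same order 0, 2 and 0 of the 7 had an unadjusted p under 0.05, against 20.8%, 48.6% and 34.1% of all genes. For Stat2 and Irf9 the WT and cKO groups overlapped in each subset. Irf7, which drives interferon alpha genes, was at 625.7 to 685.1 TPM in WT pDCs and 633.7 to 703.5 TPM in cKO pDCs, and in cDC1s at 178.2 and 137.4 against 262.4 and 248.4 TPM (0.70, SE 0.26, adjusted p 0.057). Irf1, which binds the same kind of element, was the lower one, at 249.6 and 112.8 TPM in WT and 81.6 and 89.8 TPM in cKO cDC1s (-0.96, SE 0.33, adjusted p 0.041 by limma), and was not called either.

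Of 6 genes that damp the pathway, among them Socs1 and Socs3, 0 were called in any subset by limma. The shares of all genes called were 1.05% in pDCs, 22.4% in cDC1s and 7.15% in cDC2s. In the same order 0, 3 and 2 of the 6 had an unadjusted p under 0.05, against 20.8%, 48.6% and 34.1% of all genes. In pDCs 0 of 15 nucleic acid sensing genes tested were called by limma, while 3 had an unadjusted p under 0.05, against 20.8% of all genes. The block called 1 of the 15, Cgas, against 335 of all 11299 genes. Of the same 15 genes, 4 were called in cDC1s and 1 in cDC2s. These shares are near the 22.4% and 7.15% of all genes called there. The DNA sensor Cgas was at 19.2 and 14.9 TPM in WT and 38.4 and 34.9 TPM in cKO cDC1s (1.07, SE 0.20, adjusted p 0.0022 by limma). Its adaptor Sting1 was at 43.1 and 41.9 against 88.0 and 88.7 TPM (1.04, SE 0.10, adjusted p 9.7e-05). The RNA sensor Rigi was at 1.03 and 0.85 against 2.02 and 2.38 TPM (0.72, SE 0.15, adjusted p 0.0047), far under its 41.1 to 60.4 TPM in the cDC2 libraries. Aim2, a DNA sensor that builds an inflammasome, was lower, at 99.4 and 109.9 against 68.6 and 68.4 TPM (fell by 0.60, adjusted p 0.0015). In cDC2s the call was Tlr7, the endosomal receptor for single-stranded RNA, at 80.7, 87.9 and 76.8 TPM in WT and 45.7, 38.6 and 41.5 TPM in cKO cDC2s (-0.95, SE 0.12, adjusted p 0.0008).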

How the data were processed

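Splenic DC libraries were sequenced as single-end reads of 50 bases on a BGISEQ-500. The authors filtered the reads with SOAPnuke, aligned them to mm10 with HISAT2 2.0.4, and for expression mapped them to a reference with Bowtie2 2.2.5 and estimated levels per gene with RSEM 1.2.12 (versions and build from the submitters' processing notes). The release of the transcript reference is not given in the sources used here, nor is how the listed genes were chosen. The authors deposited TPM in a table for pDCs and one for cDCs, together with matching tables of FPKM values from the authors. Each value column took its library and group from the sample titles, and 0 columns stayed unmapped. Symbols came from NCBI RefSeq (GRCm38.p6) by gene ID, for 17079 of 17128 IDs in pDCs and 17667 of 17721 in cDCs. No strand setting is stated, so reads of overlapping and antisense genes cannot be told apart.

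Because the files hold no counts, limma 3.58.1 in R 4.3.3 was used in place of the DESeq2 model of the authors, with their thresholds. Linear models (lmFit, eBayes with a mean-variance trend) were fitted to log2(TPM + 1) where the mean over the libraries reached 1 TPM, 11299 in the pDC fit of 6 libraries and 11411 in the cDC fit of 10 libraries, which held 4 group means. Adding 1 understates the change of low genes. All p-values are two-sided and were adjusted by Benjamini-Hochberg over the whole of each contrast, and calls needed an adjusted p no higher than 0.01 with a log2 fold change of 0.5 or more in size. Levels carry SDs, and fold changes carry SEs from limma. The fits were tested on simulated data with 100 genes changed at each size. Depth was estimated from the steps of low FPKM values, and the method was within 0.572% on simulated libraries. Reads carry no molecular identifiers, so such limits cover counting error only. In pDCs the deviations of same-numbered libraries from their group means correlated at r = 0.31, 0.39 and 0.21 over genes and those of other pairs at r = -0.29 to -0.03, so the number was also fitted as a block. Deviations cancel within a group, so the negative values of other pairs are not separate evidence. The block was thus chosen from the same data, and no label says that the number marks a shared batch. Alternatives were another pseudocount, no filter, FPKM, median-of-ratios scaling, quantile normalization, no variance trend, a looser threshold, the block, each cDC subset alone and each library left out. Values in every library are given for members called, or the 3 nearest to a call, for the 6 widest gaps between WT cDC1s and WT cDC2s and for the most abundant members. Others named were chosen after their values were seen. The members, the pathway and marker lists and the tests were chosen with earlier results of these data known. Promoter words and shared transcript sequence were searched with Python 3.11.15, with pandas 2.3.3 and numpy 2.4.6, and plots were drawn with matplotlib 3.10.9.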

Additional observations from a re-analysis of the deposited data

Results flagged for a closer look

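For 3 genes every cKO library of one subset stood above and every cKO library of another stood below the WT libraries. Usp18 had a log2 fold change of 0.58 in pDCs and 0.30 in cDC1s and of -0.24 in cDC2s. Between cDC1s and cDC2s the difference for Usp18 was 0.54 (SE 0.21, adjusted p 0.12 by limma) and was not called. Between pDCs and cDC2s it was not tested, because the tables were deposited and fitted separately. Herc6 had 0.05 in pDCs and -0.44 in cDC2s, and Oasl1 had 0.40 in pDCs and -0.70 in cDC1s. These 2 differences were not tested for the same reason. Such opposite groups were found for 7.22% of all genes between pDCs and cDC1s, 1.66% between pDCs and cDC2s and 4.38% between cDC1s and cDC2s, against 1, 2 and 1 of the 36 members.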

How the results depend on the processing

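The number of members called lower or higher between WT cDC1s and WT cDC2s stayed from 26 to 33 under every alternative tried, and leaving out single libraries gave 26 to 29. The counts for genotype were less steady. In pDCs, where 1 member was called, the looser limit of 0.05 on the adjusted p gave 7, and there were 2 each with a pseudocount of 0.1, with FPKM, with median-of-ratios scaling and with quantile normalization, 0 each without the filter on low genes and without the variance trend, 7 with the replicate block, and 0 to 1 without single libraries. In cDC1s, where 7 were called, there were 11 at that limit, 4 without the filter, 3 with quantile normalization and 1 to 10 without single libraries. In cDC2s there was 1 (Gbp7) at that limit, and 0 to 1 without single libraries (Gbp3, without WT cDC2 library 2). For the difference between the subsets there were 5 at the looser limit and 0 to 2 without single libraries (Ifi47 and Xaf1, without WT cDC2 library 1). No called fold change of a member changed sign, but of those not called 6 in pDCs, 9 in cDC1s and 12 in cDC2s did so under at least 1 alternative, such as Samhd1 in cDC1s (-0.19 to 0.17). With the replicate block, cDC1s had 6 members called and cDC2s 0. Outside the module the block removed the calls of Il10rb and Rigi in cDC1s and of Ifngr1 for the difference, and left 1 of the 8 calls of the second interferon list in cDC2s. Same-numbered libraries did not deviate together there (r = -0.23 in cDC1s and -0.25 to 0.25 in cDC2s), and with cDC1 numbers crossed, a pairing added after the data were seen, 5 were called. The cause of these shifts was not tested. The files give no read counts, so precision rests on 2 or 3 libraries a group and on an estimated depth. Leaving out a cDC1 library leaves 1 in its arm, which is then assumed to vary like the other groups.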

Other observations

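A second list held 89 interferon-stimulated genes outside the module. Of 82 tested in cDC1s, 26 were called by limma, 16 higher and 10 lower, against 22.4% of all genes called in either direction, and the median log2 fold change was 0.23. Among the genes that fell were the chemokine Ccl5 (881.2 and 364.1 TPM in WT, 63.8 and 64.4 in cKO cDC1s, -3.12), the checkpoint ligand Cd274 (43.6 and 38.5 TPM in WT, 5.94 and 7.87 in cKO, -2.42) and the guanylate-binding protein Gbp4 (29.2 and 21.3 TPM in WT, 4.28 and 5.64 in cKO, -2.13). Gbp8 (-2.48) and Ifit1bl1 (-2.42) fell by similar amounts. The gene that rose most was Ifi203, a nuclear protein of the DNA-binding Ifi200 family, at 13.1 and 15.3 TPM in WT and 70 and 56.7 TPM in cKO cDC1s (2.08). Ccl5 is also on the list of 20 mature DC genes. Of the 19 of them tested, 16 were called lower in cKO cDC1s, against 749 of all 11411 genes.

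In pDCs 2 of 78 tested genes of this second list were called, against 1.05% of all genes, and both were higher. Ifitm3, a membrane protein that blocks viral entry, was at 72.7, 50.2 and 49.8 TPM in WT and 160.2, 117.7 and 128.9 TPM in cKO pDCs (1.23, SE 0.17, adjusted p 0.0085 by limma). Ifi213, another member of the Ifi200 family, was at 17.3, 14.5 and 15 against 30.2, 27.8 and 29.6 TPM (0.87, SE 0.09, adjusted p 0.0031). In cDC2s 8 of 82 were called, against 7.15% of all genes, 6 of them higher. Slfn1, which holds lymphocytes in quiescence, was at 2.64, 7.5 and 5.01 TPM in WT and 17.0, 14.4 and 19.9 TPM in cKO cDC2s (1.66), Ifi204 at 13, 22.5 and 15 against 37.9, 36.2 and 44.9 TPM (1.22), and the chemokine Cxcl10 at 27.1, 32.8 and 27.1 against 43.6, 49.0 and 57.9 TPM (0.77). Gbp4 (-0.94) and Cd274 (-0.66) were lower in cKO cDC2s too.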
